A study of Mus musculus with 16 samples.

Results

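The creatine and adenine nucleotide energy shuttle was followed through 10 genes of 33641 gene symbols, chosen by name and read as TPM, a transcript level per length that is scaled to a sum of 1000000 in each library. The members were the creatine kinases Ckm, Ckmt2, Ckb and Ckmt1, the creatine transporter Slc6a8, the creatine synthesis enzymes Gatm and Gamt, the adenylate kinase Ak1, the adenylosuccinate synthase Adssl1 and the AMP deaminase Ampd3. The study asked what the loss of HuR from adipocytes changes in fat and in the heart. HuR, the product of Elavl1, binds RNA. The 16 RNA-seq libraries came from 11 C57BL/6J mice aged 28 weeks, and 5 of these mice gave both tissues. Left ventricle was represented by 4 Adipo-HuR KO libraries (mice A25, A29, A30 and A31) and 4 libraries from wild-type mice A5, A7, A8 and A14. Subcutaneous white adipose tissue (scWAT) was represented by 3 Adipo-HuR KO libraries (A24, A26 and A30) and 5 from wild-type mice A5, A7, A8, A12 and A14. The promoter that drove the recombination, any allele that the wild-type mice carried and their sex were not stated in the labels.

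Creatine kinases move a phosphate group between ATP and creatine. In muscle the mitochondrial enzyme, encoded by Ckmt2, charges creatine where ATP is made, and the cytosolic enzyme encoded by Ckm recovers ATP where it is spent. The brain-type enzyme encoded by Ckb is the main cytosolic form outside striated muscle, and in mouse thermogenic fat it takes part in a creatine cycle that spends energy as heat. Adenylate kinase evens out ATP, ADP and AMP, while AMP deaminase and adenylosuccinate synthase are steps of the purine nucleotide cycle.

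The tissue labels fitted their markers. The summed TPM of 12 cardiomyocyte genes was between 26235 and 33319 in KO hearts and between 26448 and 37291 in wild-type hearts, against at most 154 in any scWAT library. That of 10 adipocyte genes was between 57575 and 71837 in KO scWAT and between 52578 and 78149 in wild-type scWAT, against at most 2214 in any heart. Elavl1 was not lower in KO scWAT, where A24 had 42.9, A26 had 42.0 and A30 had 36.2 TPM, against 33.4, 34.5, 27.6, 19.5 and 19.0 TPM in wild-type A5, A7, A8, A12 and A14. Every KO library lay above every wild-type library, as for 5.23% of all tested genes (limma on log2(TPM + 1), unadjusted p = 0.0219, adjusted p = 0.256). Elavl1 thus gives no check of the labels. Among the hearts, the library labelled KO from A29 correlated over genes with each wild-type heart at 0.984 to 0.991 (Pearson r of log2(TPM + 1)), whereas the other KO hearts lay between 0.910 and 0.941. Results in heart are therefore given with and without A29. In scWAT, 15 skeletal muscle genes summed to 3706, 292 and 7902 TPM in KO A24, A26 and A30, against 34.3, 838, 64.2, 18.9 and 15.1 TPM in wild-type A5, A7, A8, A12 and A14. Lymphocyte genes were high in A26 alone, whose sum of 1797 TPM stood against at most 30.1 in the other scWAT libraries. Sequencing depth cannot be read from TPM and is unknown.

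The promoters of the 3 abundant creatine kinase genes are shown because their balance differed between the tissues. They are taken from RefSeq (mouse build GRCm38.p6) and run from 250 bases before to 50 bases after the transcription start, on the strand of the gene. Capitals mark matches to 6 motifs searched on both strands: TATAAA, the E-box CAGCTG, the half-site AAGGTCA, the GC box GGGCGG, the MEF2 site and the CArG box.
Ckm, chr7:19410844-19411143, plus strand: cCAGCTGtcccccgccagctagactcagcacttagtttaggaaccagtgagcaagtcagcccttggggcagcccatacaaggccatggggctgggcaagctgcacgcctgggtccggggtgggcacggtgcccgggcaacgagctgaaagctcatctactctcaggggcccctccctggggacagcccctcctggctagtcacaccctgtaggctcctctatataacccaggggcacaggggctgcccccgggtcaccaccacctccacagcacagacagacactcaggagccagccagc
Ckmt2, chr13:91876836-91877135, minus strand: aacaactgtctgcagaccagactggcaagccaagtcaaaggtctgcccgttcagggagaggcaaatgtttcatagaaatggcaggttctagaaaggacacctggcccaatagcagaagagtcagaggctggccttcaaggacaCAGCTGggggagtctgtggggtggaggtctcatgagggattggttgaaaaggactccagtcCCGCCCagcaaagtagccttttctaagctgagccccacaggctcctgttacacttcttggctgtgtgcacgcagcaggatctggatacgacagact
Ckb, chr12:111672289-111672588, minus strand: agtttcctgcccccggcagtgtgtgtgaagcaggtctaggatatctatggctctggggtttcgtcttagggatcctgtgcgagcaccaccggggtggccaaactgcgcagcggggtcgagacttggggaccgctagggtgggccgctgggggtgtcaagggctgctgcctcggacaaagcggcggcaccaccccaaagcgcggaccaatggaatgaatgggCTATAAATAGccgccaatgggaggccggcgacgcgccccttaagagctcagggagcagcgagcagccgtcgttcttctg

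Ckm and Ckmt2, the muscle enzymes, each held 1 CAGCTG, which starts 249 bases before the start of Ckm and 107 bases before that of Ckmt2. The sequence CAGCTG stood in 16.3% of all 32851 promoters of the table. Ckmt2 also held a GC box on the opposite strand, starting 46 bases before its start, a motif found in 35.7% of promoters. Ckb held TATAAA at 28 bases before its start, found in 13.6% of promoters, and inside a MEF2 match that began 1 base earlier, found in 3.19%. The Ckb window held 22 CpG pairs, the Ckm window 7 and the Ckmt2 window 4, and the median promoter held 7. These matches describe the letters of the windows and are not shown to be bound. Promoters were found for 9 of the 10 members, and Slc6a8 had no entry.

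In wild-type mice the creatine kinase transcripts of the heart were mostly Ckm and Ckmt2. Those of scWAT were mostly Ckb, except in A7, where Ckm made up 75.5%. Of 9 members that passed the filter of a mean of at least 1 TPM, 5 were higher in heart than in scWAT and 4 were lower, where 8.12% of all 13093 tested genes were higher and 78.5% lower, 86.6% in all (limma on log2(TPM + 1), adjusted p under 0.05). The groups did not overlap for 5 members that were higher and 3 that were lower, against 6.74% and 73.2% of all tested genes. The median log2 fold change of all genes was -1.27, and -0.43 with mitochondrially encoded genes left out of the total. These took 51.9% to 60.6% of TPM in wild-type hearts and 6.14% to 14.4% in wild-type scWAT. Fold changes between tissues are given from here after subtracting that median, while the tests used the values before it.

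Ckmt2 was the most divided member, at 877, 1236, 1280.2 and 1287 TPM in the wild-type hearts of A5, A7, A8 and A14, against 0.257, 1.59, 0.264, 0.0224 and 0 TPM in the wild-type scWAT of A5, A7, A8, A12 and A14. Its log2 fold change was 11.03 (SE 0.263, adjusted p = 1.09e-11). Ckm stood at 1213, 1118, 1411 and 1360.4 TPM in the hearts, against 3.86, 133, 5.06, 0.0685 and 0.0318 TPM in scWAT, a log2 fold change of 9.16 (SE 1.1, adjusted p = 2.07e-05). The groups of both genes did not overlap, and A7 stood far above the other scWAT libraries. Adssl1, the muscle form of adenylosuccinate synthase, Ak1, the main cytosolic adenylate kinase of muscle, and Slc6a8 were also higher in heart. Their log2 fold changes were 4.66 (SE 0.28), 4.55 (SE 0.325) and 3.26 (SE 0.252), with adjusted p = 2.08e-07, 1.05e-06 and 9.34e-06.

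Gamt, which makes creatine from guanidinoacetate, was the member most clearly on the side of fat. It stood between 2.37 and 3.99 TPM in wild-type hearts and between 23.0 and 103 TPM in wild-type scWAT (log2 fold change -2.23, SE 0.375, adjusted p = 2.1e-06). Gatm, which makes guanidinoacetate, stood between 0.592 and 1.72 TPM in hearts and between 3.79 and 6.53 TPM in scWAT. The fold change of Gatm relative to all genes was near 0 (-0.26, SE 0.216), though its TPM was lower in heart (log2 fold change before subtraction -1.52, adjusted p = 2.49e-05). Ckb and Ampd3, the AMP deaminase first found in erythrocytes, had lower TPM in heart (log2 fold changes -0.79 and -0.84, adjusted p = 0.00224 and 0.00544) but stood above the median gene by 0.48 and 0.42. With mitochondrially encoded genes left out of the total, neither of these 2 genes passed (adjusted p = 0.305 and 0.677).

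**Figure D1:**
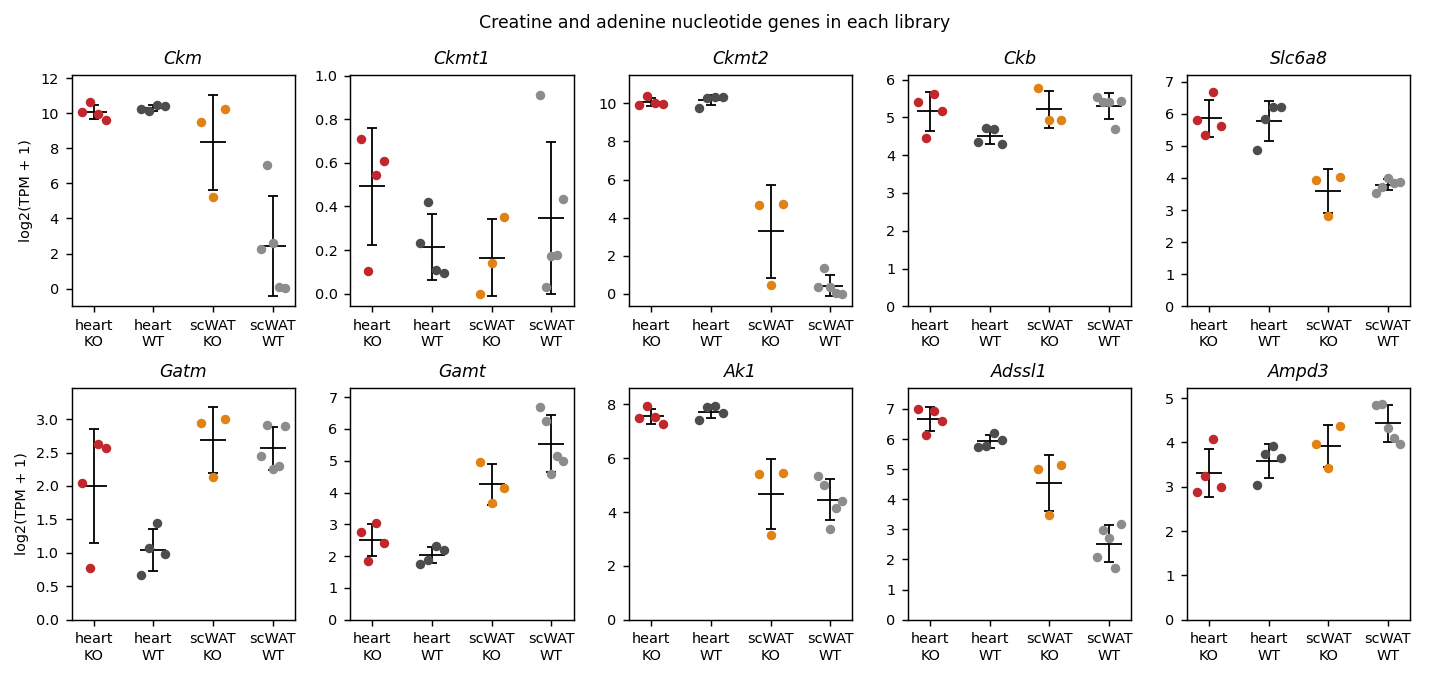
Level of each of the 10 genes as log2(TPM + 1) in every library (points) with the mean and SD of each group (bars), for heart and scWAT, Adipo-HuR KO and wild type (WT). Ckm and Ckmt2 stood high in every heart, and in scWAT they ran over a wide range, from 0.0318 to 1233 TPM for Ckm and from 0 to 25.3 TPM for Ckmt2.

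The order of levels in heart began with Ckm and Ckmt2, whose ranges overlapped in KO and in wild-type hearts. Ckm averaged 1118 ± 340.0 TPM in KO hearts and 1275 ± 135 TPM in wild-type hearts, and Ckmt2 1090.3 ± 171 and 1170 ± 197 TPM (SD, n = 4 each). Ak1 followed at 190.2 ± 37.9 TPM in KO hearts and 214 ± 33.4 TPM in wild-type hearts, apart from its neighbours in both groups. Adssl1 and Slc6a8 came next with ranges that overlapped each other, then Ckb, and then Ampd3, Gamt and Gatm, which averaged at most 11.3 TPM. Ckmt1, the ubiquitous mitochondrial creatine kinase, was at most 0.88 TPM in any of the 16 libraries and entered no test.

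In wild-type scWAT, Gamt (53.2 ± 34.3 TPM), Ckb (39.1 ± 8.17), Ckm (28.3 ± 58.4), Ak1 (23.3 ± 11.9) and Ampd3 (21.2 ± 6.47; SD, n = 5 each) formed a run in which each range overlapped the next. Ckb supplied 80.0% ± 31.9 of the summed creatine kinase TPM there. Without A7, in which Ckm made up 75.5%, the share of Ckb was between 88.3% and 99.1%. In KO scWAT the share of Ckb was 6.57%, 44.3% and 2.27% in A24, A26 and A30, and Ckm held 90.4%, 55.0% and 95.7%. In heart, Ckb was 1.98%, 0.704%, 2.32% and 1.90% of creatine kinase TPM in KO A25, A29, A30 and A31, against 0.911%, 1.06%, 0.920% and 0.701% in wild-type A5, A7, A8 and A14. The KO hearts other than A29 thus lay above all wild-type hearts in this share.

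**Figure D2:**
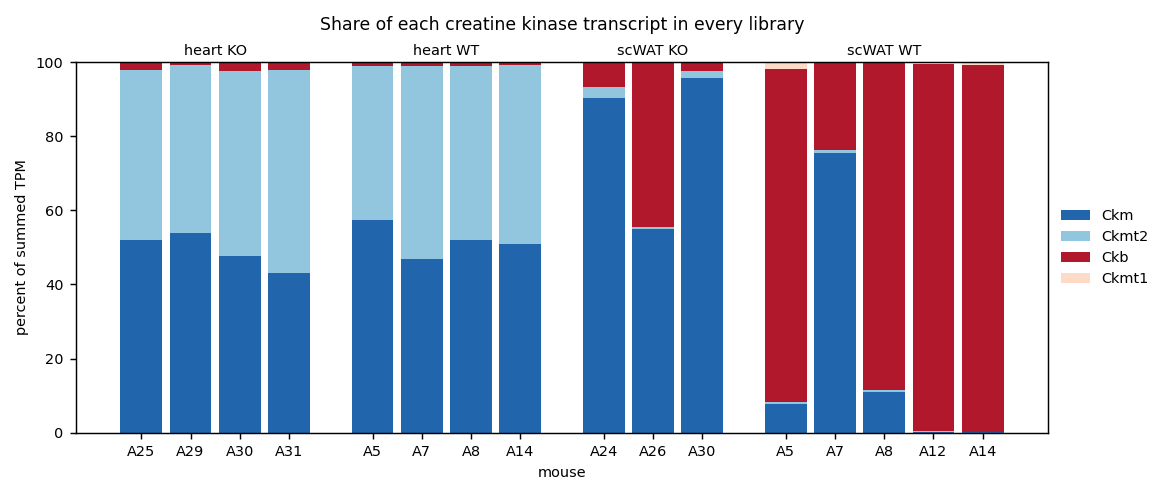
Percent of the summed TPM of the 4 creatine kinase genes held by each, one bar per library, grouped as heart KO, heart WT, scWAT KO and scWAT WT with mouse numbers below. Hearts split almost evenly between Ckm and Ckmt2, whereas scWAT bars were mostly Ckb in 4 of 5 wild-type mice and mostly Ckm in the others.

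Between KO and wild-type hearts, no member passed the test over all genes. The count was 0 of 9 tested members, where 6 of 11981 genes (0.0501%) passed, all of them higher, and 2947 had an unadjusted p under 0.05. For members the lowest adjusted p was 0.142, and 3 members (Ckb, Gatm and Adssl1) were higher at an unadjusted p under 0.05, as were 20.9% of all tested genes, with 3.66% lower. No tested member had groups without overlap, against 4.35% of all tested genes (3.71% higher and 0.634% lower). The median log2 fold change of all heart genes was 0.26, and 0.39 without A29. Heart fold changes are given after subtracting these medians, while their SE, p and calls belong to the values before it. Before subtraction the log2 fold changes were smaller in size for Ckm (-0.23, and -0.42 without A29), Ckmt2 (-0.10 and -0.20), Ak1 (-0.17 and -0.30) and Ampd3 (-0.28 and -0.26). They were larger for Ckb (0.65 and 0.89), Gatm (0.96 and 1.37), Gamt (0.47 and 0.70) and Adssl1 (0.75 and 0.92). In these bulk samples, fewer cells of a type and less RNA per cell cannot be told apart.

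Among the creatine kinases of heart, Ckm stood at 1089.9, 1593, 994 and 794 TPM in KO A25, A29, A30 and A31, against 1213, 1118, 1411 and 1360.4 TPM in wild-type A5, A7, A8 and A14. A29 was the highest heart of all and the other KO hearts were the lowest, so the groups overlapped through A29. The log2 fold change of Ckm was -0.49 (SE 0.207, adjusted p = 0.493), and without A29 it was -0.81 (SE 0.142, adjusted p = 0.0416). Ckmt2 stood at 964, 1342, 1039 and 1016 TPM in KO hearts, against 877, 1236, 1280.2 and 1287 TPM in wild-type hearts. A29 was again the highest, and A5, a wild-type heart, was the lowest. The log2 fold change of Ckmt2 was -0.35 (SE 0.178, adjusted p = 0.752), and -0.59 without A29 (SE 0.15, adjusted p = 0.319).

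Ckb stood at 41.5, 20.8, 48.2 and 35.1 TPM in KO A25, A29, A30 and A31, against 19.2, 25.1, 24.998 and 18.7 TPM in wild-type A5, A7, A8 and A14. A25, A30 and A31 were above every wild-type heart, and A29 lay among them. Its log2 fold change was 0.40 (SE 0.262, adjusted p = 0.167), and 0.50 without A29 (SE 0.182, adjusted p = 0.0041). Levels of the pseudogenes Ckb-ps1 and Ckb-ps2 were at 0 in all hearts but 1, at 0.0269 TPM, although the sources do not say how reads were shared between such copies.

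The ratio of Ckb to Ckm within a library does not depend on the scaling of TPM. It was 0.0380, 0.0131, 0.0485 and 0.0442 in KO A25, A29, A30 and A31, against 0.0158, 0.0225, 0.0177 and 0.0137 in wild-type A5, A7, A8 and A14. The mean log2 ratio was -4.96 ± 0.878 in KO hearts and -5.87 ± 0.30 in wild-type hearts (SD, n = 4 each). The difference of 0.91 did not pass a 2-sided exact permutation test (p = 0.143, adjusted over 4 tests 0.286; smallest possible p 0.0286). Without A29 it was 1.34 (exact p = 0.0286, which is the smallest that design allows, adjusted 0.114). A29 was the only KO heart not above every wild-type ratio, so leaving it out fixed this p in advance. After adjustment over 4 tests no ratio could pass alone, even at its smallest possible p. The ratio of Ckmt2 to Ckm was between 0.843 and 1.28 in KO hearts and between 0.723 and 1.11 in wild-type hearts (difference of mean log2 ratios 0.13, exact p = 0.486, adjusted 0.486).

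**Figure D3:**
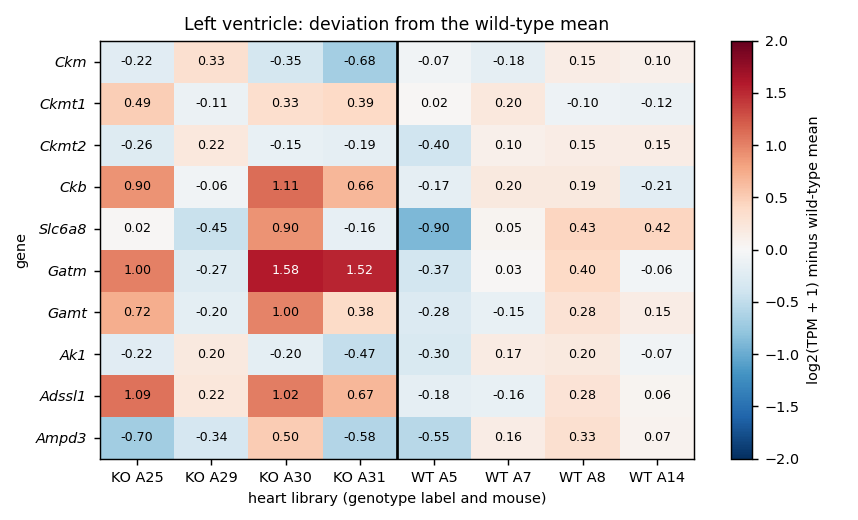
Deviation of log2(TPM + 1) from the wild-type mean of each gene (rows) in every heart library (columns, the 4 KO hearts left of the 4 wild-type hearts), with the value in each cell. Ckb, Gatm, Gamt and Adssl1 were above the wild-type mean in A25, A30 and A31, by 0.38 to 1.58. In A29, Adssl1 deviated by 0.22, and Ckb (-0.064), Gatm (-0.27) and Gamt (-0.20) lay below that mean.

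For creatine supply in heart, Gatm stood at 3.12, 0.714, 5.16 and 4.90 TPM in KO A25, A29, A30 and A31, against 0.592, 1.10, 1.72 and 0.977 TPM in wild-type A5, A7, A8 and A14. A25, A30 and A31 exceeded every wild-type heart and A29 did not. The log2 fold change of Gatm was 0.70 (SE 0.387, adjusted p = 0.168), and 0.98 without A29 (SE 0.235, adjusted p = 0.00166). Gamt stood at 5.75, 2.57, 7.17 and 4.33 TPM in KO hearts, against 2.37, 2.70, 3.99 and 3.53 TPM in wild-type hearts, with the same 3 KO hearts on top. For Gamt the log2 fold change was 0.22 (SE 0.287, adjusted p = 0.317), and 0.31 without A29 (SE 0.229, adjusted p = 0.0356).

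Slc6a8, which carries creatine into the cell, stood at 54.7, 39.4, 101.9 and 48.2 TPM in KO hearts, against 28.4, 55.9, 73.2 and 72.9 TPM in wild-type hearts. A30 was the highest and A5 the lowest, and the groups overlapped over most of their range. Slc6a8 had a log2 fold change of -0.18 (SE 0.351, adjusted p = 0.902) relative to all genes and 0.08 before the median was subtracted, so it had no settled sign.

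Of the adenine nucleotide enzymes in heart, Adssl1 stood at 128, 69.7, 122 and 95.1 TPM in KO A25, A29, A30 and A31, against 52.3, 53.3, 72.4 and 62.2 TPM in wild-type A5, A7, A8 and A14. Only A29 among the KO hearts fell inside the wild-type range. Its log2 fold change was 0.49 (SE 0.222, adjusted p = 0.142, the lowest of any member), and 0.54 without A29 (SE 0.169, adjusted p = 0.00227). Ak1 stood at 182, 243, 184 and 152 TPM in KO hearts, against 172, 238, 244 and 202 TPM in wild-type hearts (log2 fold change -0.43, SE 0.191, adjusted p = 0.579). Its share of adenylate kinase TPM was 53.3%, 66.8%, 53.2% and 49.0% in KO hearts, against 63.1% to 65.7% in wild-type hearts. Ampd3 stood at 6.40, 8.46, 15.9 and 7.01 TPM in KO hearts, against 7.17, 12.3, 14.04 and 11.6 TPM in wild-type hearts (log2 fold change -0.53, SE 0.305, adjusted p = 0.577).

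Without A29, 4 of 9 tested members (Ckb, Gatm, Gamt and Adssl1) were higher and 1 (Ckm) was lower. In that fit 34.8% of all 12081 tested genes were higher and 4.16% lower (38.9% in all), so the share of members called higher was near that of all genes. The groups of these 5 members did not overlap without A29, where 45.3% of all tested genes lay wholly higher and 3.65% wholly lower. A29 was singled out because it lacked the differences of the other KO hearts, so these values describe 3 hearts and are no independent test. Ckmt2, Slc6a8, Ak1 and Ampd3 did not pass without A29. Weighting libraries by their spread (array weights), which called 5160 genes higher and 2725 lower, called all tested members but Slc6a8 (its adjusted p = 0.201).

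Other cell types moved with the same 3 hearts. The summed TPM of 8 fibroblast and matrix genes was 2218, 252, 3670 and 2975 in KO A25, A29, A30 and A31, against 206 to 328 in wild-type hearts. That of 8 macrophage genes was 1191, 148, 1237 and 1483 in the same KO hearts, against 153 to 243 in wild-type hearts. All 16 of these genes were detected and all 16 passed in the fit without A29. The cardiomyocyte sum was 33319, 33146, 32714 and 26235 TPM in KO hearts, inside the wild-type range but for A31, which lay just under it. A sum is led by its most abundant genes. The median log2 fold change of the 12 cardiomyocyte genes was -0.495 relative to all genes, and -0.692 without A29. Ckm had -0.49 and -0.81 in the same fits. Of the other lists in heart, 2 of 12 tested cardiomyocyte, 2 of 7 skeletal muscle, 3 of 9 thermogenic adipocyte, 1 of 7 smooth muscle, 1 of 3 Schwann cell, 0 of 1 lymphocyte, 0 of 5 erythroid and 0 of 5 adipocyte genes were higher at an unadjusted p under 0.05, against 20.9% of all genes. Lower at that p were 3 of 12 cardiomyocyte, 1 of 7 skeletal muscle, 2 of 9 thermogenic adipocyte and 2 of 5 adipocyte genes. No gene of the remaining marker lists was lower, against 3.66% of all genes. Per unit of the cardiomyocyte sum, Ckm was 3.27%, 4.81%, 3.04% and 3.03% in KO hearts, against 4.59%, 3.12%, 3.78% and 4.13% in wild-type A5, A7, A8 and A14. Mitochondrially encoded transcripts took 46.2%, 55.7%, 43.4% and 48.9% of TPM in KO hearts, against 51.9% to 60.6% in wild-type hearts. The part of these shifts in the values of Ckm, Ckb, Gatm, Gamt and Adssl1 was not tested.

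The members fell into sets that varied together across the 8 hearts. Ckb correlated with Gatm (Pearson r = 0.930), Adssl1 (0.911) and Gamt (0.897), and Adssl1 with Gamt (0.921), on the log2(TPM + 1) scale. Ckm correlated with Ak1 (0.774) and Ckmt2 (0.609), and ran against Gatm (-0.788) and Ckb (-0.693). Ckmt2 correlated with Ak1 at 0.830. These are descriptions of 8 libraries that share the total of TPM and the split between A29 and the other KO hearts.

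The genes most like the creatine kinases across the same 8 hearts were found among 7364 genes averaging 5 TPM or more. For Ckm they were Cox4i1 (r = 0.977), Ndufb8 (0.959) and Ndufa8 (0.945), which encode subunits of the respiratory chain. Those for Ckmt2 were Immt (0.983), a protein of the mitochondrial inner membrane, Pdha1 (0.981), a subunit of pyruvate dehydrogenase, and Klhl7 (0.975). Those for Ckb were the glycolytic enzyme gene Eno1 (0.993), the cell cycle inhibitor gene Cdkn1a (0.986) and Parp3 (0.985). Eno1 stood between 81.4 and 188 TPM in KO hearts and between 69.3 and 101 TPM in wild-type hearts.

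In scWAT, 0 of 9 tested members passed between KO and wild type, where 3 of 13682 genes (0.0219%) passed, 0.0146% higher and 0.00731% lower, and 2138 had an unadjusted p under 0.05. The lowest adjusted p among members was 0.216. At an unadjusted p under 0.05, 3 members (Ckm, Ckmt2 and Adssl1) were higher and 1 (Gamt) was lower, against 8.11% and 7.52% of all tested genes. Adssl1 was the 1 member whose groups did not overlap, and it was higher, against 10.3% of all tested genes in either direction and 5.23% higher. The median of all genes was 0.03 here, and it was subtracted as well, with tests again on the values before it.

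Ckm stood at 736, 36.9 and 1233 TPM in KO A24, A26 and A30, against 3.86, 133, 5.06, 0.0685 and 0.0318 TPM in wild-type A5, A7, A8, A12 and A14. The KO libraries A24 and A30 were the highest, and the wild-type library A7 lay above A26. The log2 fold change of Ckm was 5.90 (SE 1.67, adjusted p = 0.217). Ckmt2 stood at 24.3, 0.356 and 25.3 TPM in KO scWAT, against 0.257, 1.59, 0.264, 0.0224 and 0 TPM in wild-type scWAT, and A26 lay within the wild-type range. Its log2 fold change was 2.82 (SE 0.9, adjusted p = 0.229), and 4.24 without A26 (adjusted p = 0.0024), a comparison of 2 KO libraries chosen after their values were seen, in which 0.923% of all tested genes were higher and 0.0447% lower.

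Adssl1 stood at 31.3, 10.02 and 34.3 TPM in KO A24, A26 and A30, against 3.20, 6.92, 5.49, 2.25 and 8.05 TPM in wild-type A5, A7, A8, A12 and A14. All 3 KO libraries lay above all 5 wild-type libraries. Its log2 fold change was 1.98 (SE 0.454, adjusted p = 0.216), and 2.52 without A26 (adjusted p = 0.0185). Adssl1 held 49.5% ± 19.9 of the TPM of the 2 adenylosuccinate synthase genes in KO scWAT (n = 3) and 19.3% ± 8.54 in wild-type scWAT (n = 5), the rest being Adss, the form found in most tissues.

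These 3 genes moved with skeletal muscle transcripts. Across the 8 scWAT libraries, the mean log2(TPM + 1) of 15 skeletal muscle genes correlated with Ckm at 0.981, Ckmt2 at 0.961 and Adssl1 at 0.903 (Pearson r, description only). Gatm at 0.602 and Ak1 at 0.536 lay between these and Slc6a8 at 0.194, Ckb at 0.098, Ampd3 at 0.00114 and Gamt at -0.285. As a percent of the summed TPM of those 15 genes, Ckm was 19.9%, 12.7% and 15.6% in KO A24, A26 and A30, against 11.2%, 15.8% and 7.89% in wild-type A5, A7 and A8, and 0.362% and 0.211% in A12 and A14. With the mean of the list as a covariate, the log2 fold change of Ckm was -0.0043 (adjusted p = 0.976), that of Ckmt2 -0.12 (adjusted p = 0.91) and that of Adssl1 0.86 (adjusted p = 0.441). The groups differ in the covariate itself, so this fit cannot tell genotype and muscle transcripts apart. Of the 14 tested genes of the list, 13 were higher at an unadjusted p under 0.05, where 8.11% of all genes were, and 0 passed after adjustment. No listed muscle gene was at 0 in a KO library, whereas 1 was at 0 in each of A12 and A14. The cardiomyocyte list summed to at most 154 TPM in scWAT, and its gene Nppb was at 0 in all 3 KO libraries.

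**Figure D4:**
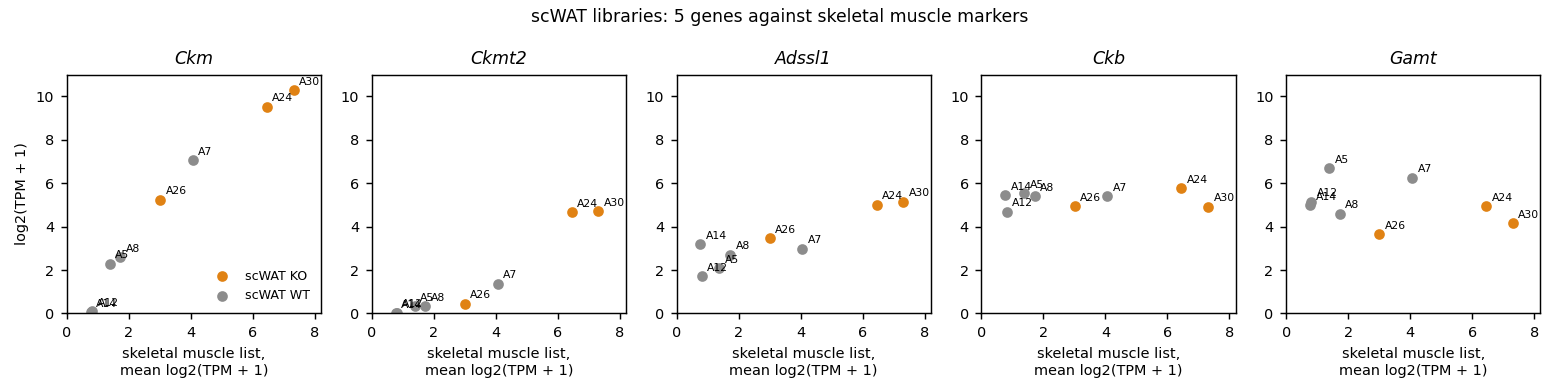
Level of 5 genes as log2(TPM + 1) against the mean log2(TPM + 1) of 15 skeletal muscle genes in the 8 scWAT libraries, each marked with its mouse number (orange, KO; grey, wild type). Ckm, Ckmt2 and Adssl1 climbed with the muscle list (r = 0.981, 0.961 and 0.903), while Ckb did not follow it (r = 0.098).

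The ratio of Ckb to Ckm showed the same split. It was 0.0726, 0.805 and 0.0237 in KO A24, A26 and A30, against 11.8, 0.313, 8.13, 363 and 1340.3 in wild-type A5, A7, A8, A12 and A14. The mean log2 ratio was -3.16 ± 2.60 in KO scWAT (n = 3) and 4.76 ± 4.78 in wild-type scWAT (n = 5), and the difference of -7.92 did not pass the exact permutation test (p = 0.0714, adjusted 0.286; smallest possible p 0.0179). Without A7 the difference was -9.53 (exact p = 0.0286, the smallest possible, adjusted 0.114). A7 was the only wild-type library whose ratio lay among the KO ratios, so leaving it out fixed this p in advance. The ratio of Ckmt2 to Ckm was 0.0330, 0.00964 and 0.0206 in KO scWAT, against 0.0666, 0.0120, 0.0522 and 0.327 in wild-type A5, A7, A8 and A12, and A14 was left out because Ckmt2 was at 0 there (difference of mean log2 ratios -1.70, exact p = 0.229, adjusted 0.305; with 1 TPM added to both genes and A14 kept -3.07, exact p = 0.107, adjusted 0.190). All of these ratios were below those of the hearts, the lowest of which was 0.723.

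Thermogenic adipocyte genes, several of which muscle also expresses, summed to 565, 1207 and 989 TPM in KO A24, A26 and A30, against 181 to 632 TPM in wild-type scWAT. Of 11 tested, 7 were higher at an unadjusted p under 0.05 (8.11% of all genes) and 1 passed over all genes. Counts of genes higher at that unadjusted p were 1 of 7 for Schwann cells, 1 of 10 for adipocytes and 4 of 5 for cardiomyocytes, and 0 for the 6 smooth muscle, 8 fibroblast, 8 macrophage, 10 lymphocyte and 5 erythroid genes tested. Lower at that p were 3 of 10 adipocyte, 1 of 6 smooth muscle and 1 of 7 Schwann cell genes, and none of the other marker lists, against 7.52% of all genes. The median log2 fold change of the adipocyte list was -0.281. The part of these cell types in the values of the members was not tested.

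The remaining members had smaller correlations with the muscle list. Ckb stood at 53.5, 29.7 and 29.3 TPM in KO A24, A26 and A30, against 45.5, 41.5, 41.1, 24.8 and 42.6 TPM in wild-type scWAT, and A24 was the highest and A12 the lowest (log2 fold change -0.12, SE 0.256, adjusted p = 0.877). Slc6a8 was at 14.2, 5.99 and 15.4 TPM in KO scWAT and between 10.6 and 15.1 TPM in wild-type scWAT, with A26 lowest (log2 fold change -0.24, SE 0.271, adjusted p = 0.717). A26 was also the lowest of all 8 libraries for Gatm, Gamt, Ak1 and Ampd3.

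Gamt stood at 29.9, 11.6 and 16.8 TPM in KO A24, A26 and A30, against 103, 74.9, 23.0, 34.5 and 30.8 TPM in wild-type A5, A7, A8, A12 and A14. A24 lay inside the wild-type range, and A5 and A7 stood far above the rest. Gamt had a log2 fold change of -1.31 (SE 0.498, adjusted p = 0.28). Gatm, at 6.66, 3.37 and 7.03 TPM in KO scWAT and 3.79 to 6.53 TPM in wild-type scWAT, had a log2 fold change of 0.09 (SE 0.264, adjusted p = 0.823).

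Ak1 stood at 41.5, 7.89 and 42.6 TPM in KO scWAT and between 9.39 and 39.4 TPM in wild-type scWAT (log2 fold change 0.18, SE 0.59, adjusted p = 0.866), and with the muscle list as a covariate its sign turned to -1.28 (adjusted p = 0.314). Ampd3 stood at 14.5, 9.72 and 19.6 TPM in KO scWAT, against 27.8, 28.4, 19.1, 16.2 and 14.7 TPM in wild-type scWAT (log2 fold change -0.55, SE 0.28, adjusted p = 0.385). Ampd3 held 26.1%, 42.3% and 27.7% of AMP deaminase TPM in KO A24, A26 and A30, against 52.6% to 63.7% in wild-type scWAT. Ampd1, the muscle form, stood at 20.7, 1.63 and 38.0 TPM in KO scWAT, against 0.0393, 3.33, 0.157, 0.148 and 0.118 TPM in wild-type A5, A7, A8, A12 and A14 (log2 fold change 3.12, SE 0.835, adjusted p = 0.216). Ampd1 was highest in A30, A24 and A7, which also had the highest sums of the skeletal muscle list. The part of muscle transcripts in these values was not tested.

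**Figure D5:**
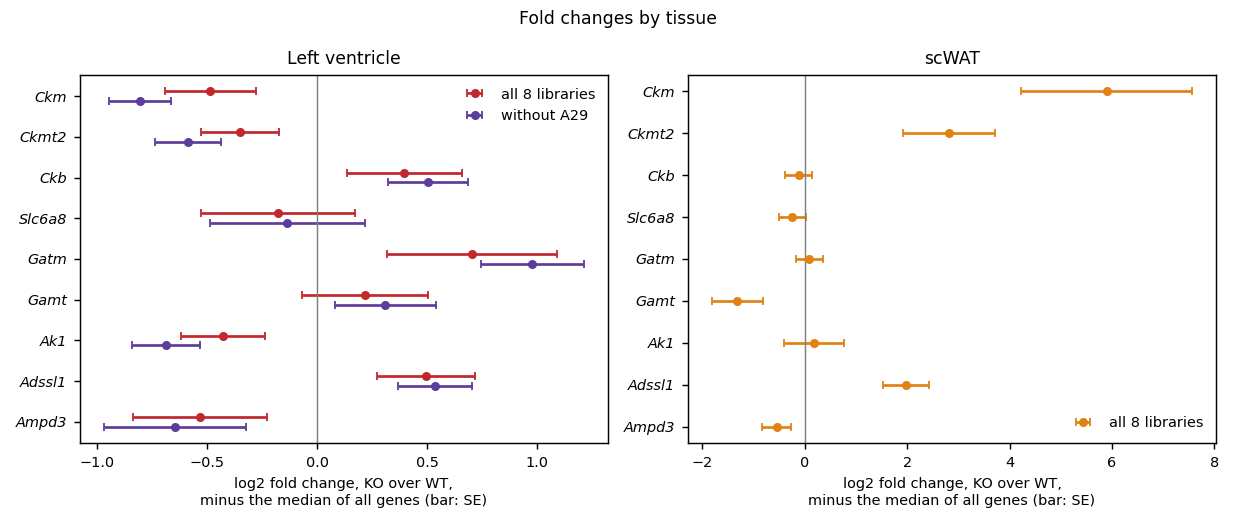
Log2 fold change of 9 genes, KO over wild type, minus the median of all genes, with its SE, in left ventricle (red, all 8 libraries; purple, without A29) and in scWAT (orange). In heart Ckb, Gatm, Gamt and Adssl1 lay above 0 and Ckm, Ckmt2, Ak1 and Ampd3 below it, and in scWAT Ckm, Ckmt2 and Adssl1 lay farthest above 0.

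The genes most like Ckm across the 8 scWAT libraries, among 10034 genes averaging 5 TPM or more, were Atp2a1 (r = 0.994), the fast muscle calcium pump, and the fast troponin genes Tnnt3 (0.992) and Tnni2 (0.988). Those most like Ckmt2 were Mylk2 (0.992), the skeletal muscle myosin light chain kinase, Myot (0.991) and Acta1 (0.991), the skeletal muscle actin. Ckb had other neighbours, Ost4 (0.986), Abl1 (0.977) and Ldhd (0.975).

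Whether the KO difference itself differed between heart and scWAT was tested with an interaction term over all 16 libraries. None of 9 tested members passed, where 7 of 11536 genes (0.0607%) did, 0.00867% higher and 0.052% lower, and at an unadjusted p under 0.05 there was 1 member above 0 (Gamt) and 3 below it (Ckm, Ckmt2 and Adssl1), against 17% and 3.42% of all tested genes. The difference of log2 fold changes, heart minus scWAT and relative to the median of all genes of 0.24 (SE and p before subtraction), was -6.40 for Ckm (SE 1.73, adjusted p = 0.0922), -3.19 for Ckmt2 (SE 0.935, adjusted p = 0.111), 1.52 for Gamt (SE 0.589, adjusted p = 0.125) and -1.50 for Adssl1 (SE 0.521, adjusted p = 0.189). Ckm passed without wild-type scWAT A7 (-7.54, adjusted p = 0.0326), without KO scWAT A26 (-7.94, adjusted p = 0.0252) and without KO heart A29 (-6.72, adjusted p = 0.0217). Ckmt2 passed without KO scWAT A26 (-4.60, adjusted p = 1.47e-05) and without KO heart A29 (-3.43, adjusted p = 0.0358). Of 16 fits that each left out 1 library, Ckm thus passed in 3 and Ckmt2 in 2. Without A29, Ckb (0.61, adjusted p = 0.0411), Gatm (0.87, adjusted p = 0.0226) and Gamt (1.61, adjusted p = 0.0239) also passed. In the fit without A29, a library singled out after its values were seen, 22.4% of all tested genes were higher and 2.27% lower. Without A26 these shares were 0.0435% and 0.774%, and without A7 they were 0.00866% and 0.052%. In the main interaction fit, 6 of 7 tested skeletal muscle genes were lower at an unadjusted p under 0.05, against 3.42% of all genes. Of the list 1 gene passed over all genes, and its median was -4.03 relative to all genes. The part of muscle transcripts in the interaction values of Ckm, Ckmt2 and Adssl1 was not tested.

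The wider pathway was read from 6 lists chosen with earlier results of these data known. In heart no tested gene of these lists passed over all genes. In the list of adenine nucleotide interconversion and salvage, 6 of 15 tested genes had an unadjusted p under 0.05 and were higher and 1 was lower, against 20.9% and 3.66% of all tested heart genes, and the median log2 fold change was 0.07 relative to all genes. Its genes with the smallest p were Ak6 (0.47, SE 0.21), Pnp (1.02, SE 0.381), the purine nucleoside phosphorylase, and Nt5c (1.09, SE 0.402), a nucleotidase, each with adjusted p = 0.142. Ak6, an adenylate kinase of the nucleus, took 15.5%, 9.34%, 15.2% and 18.8% of adenylate kinase TPM in KO A25, A29, A30 and A31, against 7.66% to 9.30% in wild-type hearts.

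Of 11 tested heart genes of arginine and guanidino supply, 4 were higher at an unadjusted p under 0.05 and 0 lower, against 20.9% and 3.66% of all genes. The median of the list was -0.16. The genes with the smallest p were Ass1 and Asl, which make arginine from citrulline, and the cationic amino acid transporter gene Slc7a2. Their log2 fold changes were 1.02, 0.66 and 0.64 (adjusted p = 0.142, 0.142 and 0.146). Ass1 averaged 7.63 ± 3.73 TPM in KO hearts and 2.23 ± 0.46 TPM in wild-type hearts (SD, n = 4 each).

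For ATP exchange across mitochondrial membranes, 3 of 11 tested heart genes were higher at an unadjusted p under 0.05, a share near the 20.9% of all genes. They were Tspo (1.69), the adenine nucleotide translocator gene Slc25a5 (0.32) and the outer membrane channel gene Vdac2 (0.10), with adjusted p = 0.142, 0.142 and 0.191. Tspo, an outer membrane protein that macrophages also carry, stood at 106, 19.97, 109 and 119 TPM in KO A25, A29, A30 and A31, against 14.4 to 21.3 TPM in wild-type hearts. Among regulators of oxidative muscle genes, 3 of 12 were lower at an unadjusted p under 0.05, where 3.66% of all genes were, and 0 were higher. They were Ppargc1a (-1.25, adjusted p = 0.142), a coactivator of mitochondrial genes, and the estrogen-related receptors Esrrg (-1.09, adjusted p = 0.149) and Esrrb (-0.999, adjusted p = 0.192). Ppargc1a averaged 14.7 ± 5.53 TPM in KO hearts and 30.7 ± 12.9 TPM in wild-type hearts (SD, n = 4 each), and the median of the list was -0.47.

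No gene of the AMP-activated protein kinase list (11 tested) or of the partners of the adipocyte creatine cycle (4 tested) had an unadjusted p under 0.05 in heart. The smallest p in the kinase list belonged to Prkag3, Cab39 and Prkaa2 (adjusted p = 0.257, 0.314 and 0.316), and in the creatine cycle list to Phospho2, Slc6a9 and Phospho1 (adjusted p = 0.26, 0.406 and 0.504). Without A29, Ppargc1a (-1.57, adjusted p = 0.0157) and Esrrg (-1.36, adjusted p = 0.0227) passed, as did Ak6, Pnp, Nt5c, Tspo, Slc25a5, Vdac2, Prkag3, Ass1, Asl and Slc7a2 upward. In that fit 34.8% of all tested genes were higher and 4.16% lower. These genes were named by their small p in the same hearts and A29 was left out for its values, so their passing is no independent test.

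In scWAT none of the pathway genes passed either. Of 18 tested genes of adenine nucleotide interconversion and salvage, 1 (Ampd1) was higher and 2 were lower at an unadjusted p under 0.05, against 8.11% and 7.52% of all tested genes. Among the lower ones was the adenosine kinase gene Adk. Adk averaged 42.0 ± 8.16 TPM in KO scWAT and 76.9 ± 19.2 TPM in wild-type scWAT (log2 fold change -0.87, adjusted p = 0.216).

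None of the 4 partners of the adipocyte creatine cycle had an unadjusted p under 0.05 in scWAT. The phosphatase genes Phospho1 (0.23, SE 0.152) and Alpl (-0.16, SE 0.217) and the glycine transporter gene Slc6a9 (0.19, SE 0.262) had adjusted p between 0.403 and 0.786. Regulators of oxidative genes held 3 of 11 tested genes that were higher at an unadjusted p under 0.05 (8.11% of all genes), namely Nrf1 (0.74), Mef2c (0.63) and Tfam (0.41), with adjusted p = 0.216, 0.217 and 0.261. Mat2a, which makes the methyl donor used by Gamt, averaged 163 ± 3.78 TPM in KO scWAT and 125 ± 23.7 TPM in wild-type scWAT (log2 fold change 0.37, adjusted p = 0.305). The remaining genes with the smallest p of their lists, Arg1, Ahcy, Ppif, Slc25a24, Slc25a25, Prkab1, Prkag3 and Prkag2, had log2 fold changes between -0.84 and 0.40 and adjusted p between 0.321 and 0.603.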

How the data were processed

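RNA was extracted from frozen tissue with Trizol and made into libraries with an Illumina TruSeq kit, per the labels' protocols. For every library the authors deposited TPM values by gene symbol, as the columns are named per the file headers. For the tools of alignment and quantification and the genome build the entry is: not given in the sources used here. How reads of gene copies and antisense partners were assigned is likewise unstated, and TPM carries no depth, so counting intervals cannot be given.

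From these tables, log2(TPM + 1) was fitted in R 4.3.3 by linear models with trended moderation of the variance (limma 3.58.1, 2-sided). Genes averaging 1 TPM or more in the libraries fitted were tested, and for the interaction this had to hold in each tissue. Benjamini-Hochberg adjustment ran over all genes of a fit, and calls used an adjusted p under 0.05. A pseudocount of 1 understates the change of low genes. The log2 ratios of creatine kinase genes were compared with 2-sided exact permutation tests, adjusted over 4 tests. The fits were tested on simulated data with changed genes. The simulated noise was independent between genes, so shifts that many genes of a library share were not covered. Descriptions used Python 3.11.15 with numpy 2.4.6 and pandas 2.3.3. Promoters came from a RefSeq table of GRCm38.p6.

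Groups and mouse numbers came from the labels. Libraries of a group came from different mice. The same number marks the same mouse in both tissues (A5, A7, A8, A14 and A30), so the numbers pair the samples across tissues. Deviations from the group means of the same mouse correlated at -0.0024, 0.06, 0.13, 0.07 and 0.05 over genes in A5, A7, A8, A14 and A30. The mouse was tried as a replicate block. Genes of the pathway lists were named by the smallest unadjusted p, up to 3 a list and tissue, and genes like Ckm, Ckb and Ckmt2 by Pearson r, with a mean of at least 5 TPM. The members, the 6 pathway lists and the 10 marker lists were chosen with earlier results of these data known. Of 181 listed symbols, 1 was not matched. The values of 1 gene of the pathway lists are not reported here. Alternatives were 1 TPM added to both genes of a ratio, pseudocounts of 0.25 and 5, no filter, a filter of 5 TPM, median-of-ratios and quantile scaling, removal of mitochondrially encoded genes, array weights, a skeletal muscle covariate, the style of the deposited name as a covariate, and leaving out each library.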

Additional observations from a re-analysis of the deposited data

Results flagged for a closer look

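In a group of 4 or 5 libraries, 4 of 30 sets of member values held a library far from the others, where chance gives about 1 set in 20. Among wild-type hearts, Ckmt2 was low in A5 at 877 TPM, against 1236 to 1287 TPM in the other hearts of the group. Mitochondrially encoded transcripts took 60.6% of TPM in A5, the highest share of any library, and with these genes left out of the total Ckmt2 stood at 2224 TPM in A5, against 2633, 2661 and 2749 TPM in A7, A8 and A14. Their part in the difference was not tested.

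Among wild-type scWAT libraries, A7 was high for Ckm, at 133 TPM against at most 5.06 TPM in the others, and for Ckmt2, at 1.59 TPM against at most 0.264 TPM. The summed TPM of 15 skeletal muscle genes was 838 in A7 and at most 64.2 in the other wild-type scWAT libraries. Ckb was low in wild-type scWAT A12, at 24.8 TPM against 41.1 to 45.5 TPM in the others, and A12 also had the highest mitochondrially encoded share of the scWAT libraries, at 14.4%. With those genes left out of the total, Ckb stood at 28.98 TPM in A12, against 44.5 to 48.5 TPM in the others.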

How the results depend on the processing

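Of 697 repeats of member fold changes relative to the median of all genes, 627 kept direction and call. A further 30 passed where the main test had not, 2 no longer passed and 38 changed sign relative to that median. In heart, genes higher (6) numbered 2 with a 5 TPM filter and 5160 with array weights, and genes lower (0) numbered 2 with no filter and 2725 with array weights. Leaving out each library gave 3 to 4203 higher and 0 to 502 lower, the upper ends without A29. In scWAT, genes higher (2) numbered 5 with no filter, 1 with a 5 TPM filter, 4 with median-of-ratios or quantile scaling, 66 with array weights and 1 with the muscle covariate. Genes lower (1) numbered 14 with array weights and 0 with a pseudocount of 5, a 5 TPM filter, the muscle covariate or the name-style covariate. Leaving out each scWAT library gave 2 to 124 higher, the upper end without A26, and 0 to 34 lower, the upper end without KO A30. Between tissues, genes higher (1063) and lower (10279) numbered 4272 and 4413 with median-of-ratios scaling, 4381 and 4583 with quantile scaling, and 2725 and 6547 without mitochondrially encoded genes, so the split of calls between tissues depends on the scaling. Leaving out each library gave 954 to 1231 higher and 9964 to 10340 lower. For the interaction, genes higher (1) numbered 4 with a pseudocount of 5, 6 with no filter, 202 with median-of-ratios scaling, 126 with quantile scaling, 4 without mitochondrially encoded genes and 3461 with array weights. Genes lower (6) numbered 11 with no filter, 2 with a 5 TPM filter, 70, 42, 13 and 1802 under the same 4 settings. Leaving out each library gave 1 to 2599 higher and 4 to 264 lower. The cause of these shifts was not tested.

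Sign changes of members were Slc6a8 in heart with no filter (0.033), and in scWAT Ckm (-0.0043), Ckmt2 (-0.12), Gatm (-0.46) and Ak1 (-1.28) with the muscle covariate, Slc6a8 with array weights (0.092) and Gatm with quantile scaling (-0.021). Between tissues they were Ckb (-0.37) and Ampd3 (-0.43) with no filter and Gatm (0.11) with a pseudocount of 5. In the interaction they were Slc6a8 with a 5 TPM filter (-0.000245), median-of-ratios scaling (-0.020) and array weights (-0.51), and Ampd3 with a pseudocount of 5 (0.079) and with no filter (0.21). All these signs are relative to the median of all genes. A filter changes that median and not the fold change of a gene before subtraction. Between tissues the median was -0.41 with no filter and -0.82 with a pseudocount of 5, against -1.27 in the main fit. Before subtraction Ckb, Ampd3 and Gatm stayed lower in heart in those fits. Leaving out each library moved Ckb in scWAT from -0.39 to 0.033, Slc6a8 from -0.46 to 0.16, Gatm from -0.057 to 0.38 and Ak1 from -0.20 to 0.94, and in the interaction Slc6a8 from -0.33 to 0.27 and Ampd3 from -0.24 to 0.22. Of the 4 log2 creatine kinase ratios none changed its call. After adjustment over 4 tests no ratio could pass alone, even at its smallest possible p, so the unchanged calls are no sign of stability. Leaving out each library gave differences of 0.71 to 1.34 (heart Ckb to Ckm), 0.016 to 0.23 (heart Ckmt2 to Ckm), -9.53 to -6.52 (scWAT Ckb to Ckm) and -2.48 to -0.89 (scWAT Ckmt2 to Ckm). With 1 TPM added to both genes the differences were 0.88, 0.13, -6.02 and -3.07 in the same order, with adjusted p from 0.190 to 0.486, so that of scWAT Ckmt2 to Ckm, -1.70 with nothing added, moved by over 1.5 times. With the mouse as a replicate block the consensus correlation was -0.02 between tissues and -0.04 in the interaction. Genes higher and lower between tissues then numbered 1058 and 10262 (1027 and 10324 with the mouse as a fixed term), and 1 and 6 in the interaction. The replicate block changed no call of a member. With 3 to 5 mice a group and an unknown depth, differences smaller than the spread between mice were not detectable.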
